A study of Mus musculus with 8 samples.

Results

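In total, 10 transcription factor genes that are known to build or maintain pancreatic islet cells were followed through scRNA-seq of islets from vehicle- and FAKi-treated mice. They were *Pdx1*, *Nkx6-1*, *Mafa*, *Nkx2-2*, *Neurod1*, *Insm1*, *Isl1*, *Pax6*, *Rfx6* and *Foxa2*, and all 10 were found by symbol among the 19945 genes of the count table. The rule names the genes and uses no measured value, but the members were chosen with earlier results of these data known. Each was read in every annotated cell type, in the annotated β-cell clusters 0, 1 and 10, and in both libraries.

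Both groups were wild-type mice. One group received vehicle and the other FAKi (PF562271, an inhibitor of focal adhesion kinase) at 50 mg/kg by gavage, 2 times a day for 3 weeks, and islets were handpicked 10 days after the last dose. Islets of 5 mice were pooled into 1 library per treatment, and the 8 deposited samples are 4 sequencing lanes of each library, so no value has a replicate check and no test across samples could be made. The sources used here give age, strains and the balance of sexes for the study's mice in general, and not for these pools.

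The vehicle library held 3776 cells and 59514118 unique molecular identifiers (UMIs, tags that mark single captured RNA molecules), and the FAKi library held 3183 cells and 57836783 UMIs. Single cells carried 504 to 135194 UMIs, and 4 cell barcodes occurred in both libraries. The annotation names 12 cell types in 17 clusters. A level is given in CPM, the UMIs of a gene per 1000000 UMIs of all genes, after adding up all cells of a type or cluster. Values in parentheses after a level, a ratio of levels or a share of cells are 95% intervals (exact Poisson, exact conditional binomial and Clopper-Pearson), and they cover counting error only. Where values come in pairs, that of the vehicle library stands first. Reads came from the 3′ ends of transcripts, and levels were compared between groups of cells for the same gene, not between genes.

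The annotated endocrine types were checked against their hormones. β-cells (1076 cells with vehicle and 1336 with FAKi) were led by the insulin gene *Ins2*, with 401354 and 408223 CPM in cluster 0. α-Cell cluster 5 was led by glucagon (*Gcg*, 264490 and 295121 CPM) and δ-cell cluster 6 by somatostatin (*Sst*, 213487 and 219821 CPM). Cluster 8 of the annotated δ-cells went against its label, with 278292 and 263888 CPM of pancreatic polypeptide (*Ppy*) and 6909 and 7524 CPM of *Sst*, and it is called the *Ppy*-led cluster 8 here. Cluster 9 of the annotated α-cells mixed hormones, with 58406.5 and 45730.2 CPM of *Sst* beside its *Gcg*. The 28 annotated T cells of the FAKi library held 293516 CPM of *Ins2*, against 52237.7 CPM in the 168 T cells of the vehicle library, so both values of T cells were left out of statements on cells outside the islet endocrine types unless named.

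Islet cells descend from one pool of endocrine precursors, and transcription factors acting in sequence decide which hormone each cell will make. Pdx1, a homeodomain factor, is needed for the pancreas to form and later binds the insulin gene. Nkx6-1, also a homeodomain factor, represses programmes of other islet types in β-cells, and Mafa, a basic leucine zipper factor, activates insulin as β-cells mature. Nkx2-2, Neurod1, Insm1, Isl1, Pax6 and Rfx6 act in several or all islet types. Foxa2 is a forkhead factor that opens chromatin in gut-derived tissues and is also found in pancreatic ducts.

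On the mouse build GRCm38 with the GENCODE vM21 annotation, 5 of the 10 genes lie on chromosome 2. *Neurod1* lies at chr2:79452521-79456751, *Pax6* at chr2:105668900-105697364, *Insm1* at chr2:146221921-146225020, *Nkx2-2* at chr2:147177546-147194243 and *Foxa2* at chr2:148042877-148046969. *Pdx1* (chr5:147269959-147275848) and *Nkx6-1* (chr5:101658139-101664996) share chromosome 5, while *Mafa* lies at chr15:75745490-75748228, *Isl1* at chr13:116298281-116309689 and *Rfx6* at chr10:51677756-51730432. *Pdx1*, *Nkx2-2* and *Pax6* each overlap an antisense gene, and *Neurod1* overlaps *Cerkl* on its own strand. The counts of these 4 are uncertain to that extent, since whether counting used strand was not given in the sources used here. *Plut*, antisense to *Pdx1*, was counted at 73.9 CPM in vehicle and 61.3 CPM in FAKi β-cells, and *Cerkl* at 12.0 and 11.8 CPM.

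Promoters were taken from RefSeq on GRCm38.p6, as 250 bases before and 50 bases after each annotated start, and 8 of the 10 genes matched, with 11 promoters. Those of *Pdx1* and *Nkx6-1* are printed because these genes separated the endocrine types, and that of *Nkx2-2* because it had the lowest FAKi to vehicle ratio in β-cells. Capitals mark every match to the 6 motifs searched on both strands, which were CCACTT (NK2 factors), CAGATG (an E-box bound by Neurod1), TAATTA (homeodomains), TGTTTAC (Foxa factors), TGCTGAC (Maf factors) and GTTGCC (Rfx factors).
*Pdx1*, chr5:147269847-147270146, plus strand: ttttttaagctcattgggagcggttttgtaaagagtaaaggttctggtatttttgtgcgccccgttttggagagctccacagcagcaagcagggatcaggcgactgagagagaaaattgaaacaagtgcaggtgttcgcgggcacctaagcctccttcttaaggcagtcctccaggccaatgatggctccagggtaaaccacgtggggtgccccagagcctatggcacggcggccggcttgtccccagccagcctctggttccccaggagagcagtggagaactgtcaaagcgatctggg
*Nkx6-1*, chr5:101664662-101664961, minus strand: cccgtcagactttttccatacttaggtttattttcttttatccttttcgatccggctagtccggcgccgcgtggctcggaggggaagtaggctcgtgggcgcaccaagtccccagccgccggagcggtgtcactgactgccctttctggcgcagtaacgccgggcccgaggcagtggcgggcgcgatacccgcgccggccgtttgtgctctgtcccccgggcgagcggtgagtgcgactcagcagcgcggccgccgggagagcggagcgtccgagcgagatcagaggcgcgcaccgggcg
*Nkx2-2*, chr2:147186353-147186652, minus strand: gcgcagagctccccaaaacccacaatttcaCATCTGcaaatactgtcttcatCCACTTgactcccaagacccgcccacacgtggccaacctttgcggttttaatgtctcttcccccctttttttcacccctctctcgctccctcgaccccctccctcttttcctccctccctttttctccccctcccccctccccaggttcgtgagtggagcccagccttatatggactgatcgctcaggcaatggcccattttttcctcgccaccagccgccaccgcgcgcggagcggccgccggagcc

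The *Nkx2-2* promoter held CCACTT, with its first base 198 bases before the start, and the E-box CAGATG on the minus strand at 220 bases before it. CCACTT also occurred in 1 of the 3 *Foxa2* promoters. It was thus in 2 of the 11 promoters, and it occurs in 16.9% of all 32851 mouse promoters of this length. GTTGCC was in 2 of the 11, those of *Pax6* and *Rfx6*, and in 12.5% of all. CAGATG was in 1 of the 11 and in 17.2% of all. TAATTA was in 1 of the 11, that of *Rfx6*, and in 5.29% of all, and TGCTGAC in 1, a *Foxa2* promoter, and in 4.67% of all. TGTTTAC was in none of the 11 and in 3.65% of all, and the printed *Pdx1* and *Nkx6-1* promoters held none of the 6 letter strings. Matches describe these letters in this window only. *Mafa* and *Insm1* are named without a promoter.

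Among the endocrine clusters, *Mafa* was the member most nearly limited to β-cells. In β-cell cluster 0 it stood at 775 CPM (764 to 787) with vehicle and 620 CPM (611 to 630) with FAKi. It was lower in cluster 1 (626 and 530 CPM) and lowest of the 3 in cluster 10 (361 and 265 CPM), and in both libraries the 3 clusters' intervals were apart. In α-cell cluster 5 it stood at 2.41 and 5.27 CPM, from 7 and 23 UMIs, and in δ-cell cluster 6 at 2.17 and 5.005 CPM, from 5 and 13 UMIs.

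*Pdx1* was shared by β-cells and the *Sst*-led δ-cells and nearly missing from the *Gcg*-led α-cells. It stood at 147 and 139 CPM in β-cell cluster 0 and at 116 and 124 CPM in δ-cell cluster 6. In α-cell cluster 5 only 2 and 3 UMIs were counted in 186 and 266 cells, or 0.688 and 0.687 CPM. The *Ppy*-led cluster 8 lay between, with 25.4 and 19.4 CPM. The interval of δ-cell cluster 6 overlapped that of β-cell cluster 0 in the FAKi library, and in the vehicle library it overlapped β-cell clusters 1 and 10 only.

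*Nkx6-1* showed another split. β-Cell cluster 0 held 325 and 277 CPM and the *Ppy*-led cluster 8 held 76.6 and 71.4 CPM. δ-Cell cluster 6, which held much *Pdx1*, had the lowest endocrine *Nkx6-1* level in both libraries, at 8.68 and 4.62 CPM from 20 and 12 UMIs. α-Cell cluster 5 held 17.2 and 14.2 CPM.

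**Figure D1:**
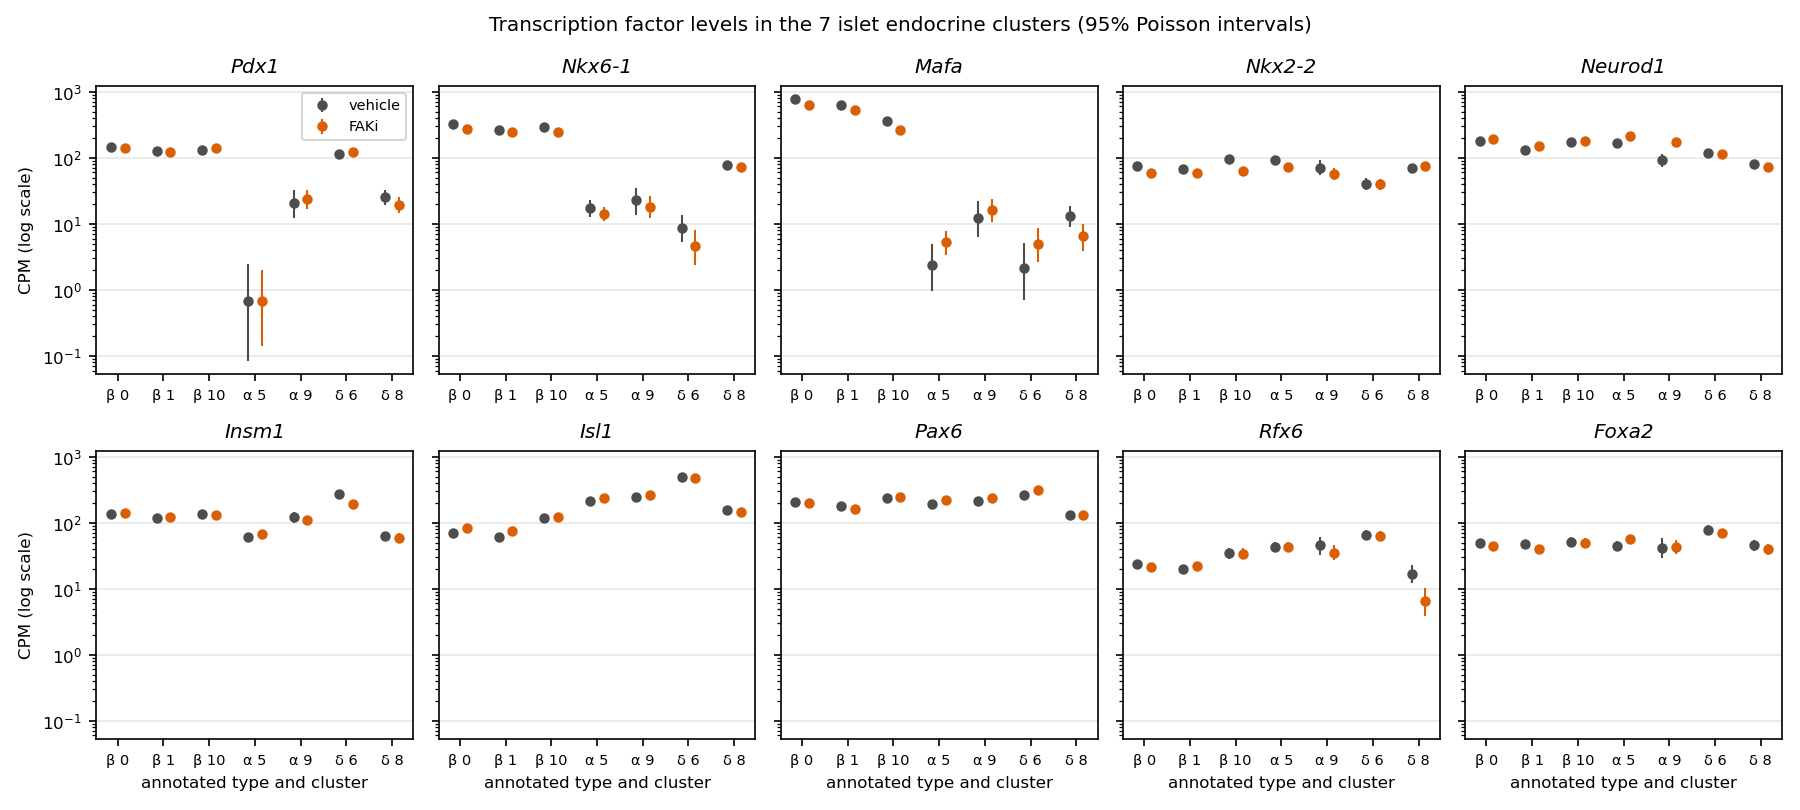
Levels of the 10 transcription factors in the 7 islet endocrine clusters, 1 panel per gene, with CPM on a log axis, vehicle in grey and FAKi in orange, and bars for the 95% Poisson interval of counting. *Pdx1*, *Nkx6-1* and *Mafa* spread over the widest range between clusters (*Pdx1* from 0.687 to 147 CPM), while *Pax6* stayed between 129 and 307 CPM in all 7.

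The other 7 members were present in every endocrine cluster, and 5 of them had their highest endocrine level in δ-cell cluster 6 in both libraries. With the 7 hormone genes left out of the totals, *Isl1* and *Rfx6* kept that place in both libraries and *Insm1* with vehicle, while *Pax6* and *Foxa2* were highest in a β-cell cluster in both. *Isl1*, a LIM homeodomain factor needed for islet cells to form and survive, was highest in δ-cell cluster 6, at 486 and 470.5 CPM. It stood at 211 and 239 CPM in α-cell cluster 5 and at 68.8 and 83.2 CPM in β-cell cluster 0, with intervals apart between these 3. *Insm1*, a zinc finger factor of endocrine differentiation, was also highest in δ-cell cluster 6, at 273 and 191 CPM. Its level in β-cell cluster 0 was 135 and 139 CPM, and in α-cell cluster 5 it was 60.2 and 66.4 CPM.

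*Pax6*, a paired-box factor that activates hormone genes in all islet types, stood above 100 CPM in every endocrine cluster. It ranged from 132 and 129 CPM in the *Ppy*-led cluster 8 to 259 and 307 CPM in δ-cell cluster 6, with 208 and 202 CPM in β-cell cluster 0. *Rfx6*, a winged-helix factor that acts after the endocrine precursor stage, was highest in δ-cell cluster 6 (65.5 and 63.1 CPM), above α-cell cluster 5 (43.3 and 43.5 CPM) and β-cell cluster 0 (23.7 and 21.6 CPM). In the vehicle library its intervals in δ-cell cluster 6 and α-cell cluster 9 overlapped, so the top of this order was not settled there. The same held for *Pax6* in δ-cell cluster 6 and β-cell cluster 10 with vehicle, and for *Foxa2* in δ-cell cluster 6 and α-cell cluster 5 with FAKi.

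*Nkx2-2* was lowest among the endocrine clusters in δ-cell cluster 6, at 40.8 and 40.0 CPM. Its highest value was in β-cell cluster 10 in the vehicle library, at 94.8 CPM, and in the *Ppy*-led cluster 8 in the FAKi library, at 76.5 CPM. Both tops overlapped the next cluster, α-cell cluster 5 with 93.5 and 73.8 CPM. *Neurod1*, a basic helix-loop-helix factor that activates insulin and other hormone genes, stood at 180 and 194 CPM in β-cell cluster 0, 169 and 212 CPM in α-cell cluster 5 and 120 and 113 CPM in δ-cell cluster 6. *Foxa2* lay between 39.4 and 78.5 CPM in all 7 endocrine clusters.

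Direct ratios were taken between annotated types. A gene was counted as past 1.5-fold on log2(CPM + 1), and the share of genes past it was taken over genes for which both groups together held 100 UMIs or more. The authors clustered the cells on their expression, so ratios between clusters describe the clusters and are no test. In β-cells over all α-cells, *Mafa* had the widest gap, with ratios of 147 and 68.0. The α-cells held only 18 and 50 of its UMIs, so the size of the gap is uncertain. Whether these UMIs were background was not tested. *Pdx1* had ratios of 26.7 and 19.2, and its α-cell UMIs came mostly from the mixed cluster 9 (18 and 39, against 2 and 3 in cluster 5). *Nkx6-1* had 16.7 and 17.4, and *Insm1* 1.77 and 1.70. *Isl1* was lower in β-cells, with ratios of 0.328 and 0.342, and so was *Rfx6*, with 0.546 and 0.549.

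These made 4 of 10 members past 1.5-fold higher and 2 past it lower in each library. Of all genes tested, 7.38% were past it higher and 45.1% lower in the vehicle library, and 6.29% and 51% in the FAKi library. The members' median log2 ratio was 0.16 and -0.18, and that of all genes was -0.52 and -0.60. The split of genes moved with the hormones, which make up much of the UMIs. With the 7 hormone genes left out of the totals, 22.5% of genes were higher and 11.7% lower in the vehicle library, and 22.1% and 12.3% in the FAKi library. With that scaling 7 members were past 1.5-fold higher with vehicle and 5 with FAKi, *Isl1* was the 1 member past it lower in both, and the ratio of *Nkx2-2* turned to above 1 in both, as did those of *Neurod1*, *Pax6* and *Foxa2* in the FAKi library.

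Between β-cell cluster 0 and δ-cell cluster 6, *Mafa* had ratios of 357 (153 to 1101) and 124 (72.5 to 233). The δ-cells held only 5 and 13 of its UMIs, and whether these were background was not tested either. *Nkx6-1* had 37.5 (24.3 to 61.4) in the vehicle library, with an interval of 34.3 to 116 in the other. *Pdx1* had ratios of 1.27 and 1.12. *Isl1* was lower in β-cells, with ratios of 0.142 and 0.177, and so were *Rfx6*, with 0.362 and 0.342, and *Foxa2*, with 0.620 and 0.638. *Insm1* was lower too, with 0.495 and 0.725. In all, 4 of 10 members were past 1.5-fold higher and 4 lower in the vehicle library, where 5.11% and 66% of genes were. In the FAKi library 3 were higher and 4 lower, against 4.67% and 65.6% of genes. Without hormone genes in the totals, 17.8% of genes were higher and 15.4% lower in the vehicle library, and 18.6% and 14.6% in the FAKi library. With that scaling 5 members were past 1.5-fold higher in each library, *Pdx1* among them with log2 ratios of 1.21 and 1.06. *Isl1* was the 1 member past it lower with vehicle, and *Isl1* and *Rfx6* were with FAKi. *Foxa2* then lay above 1 in both libraries, with log2 ratios of 0.19 and 0.26, as did *Pax6* with 0.56 and 0.30, and *Insm1* had -0.14 and 0.44.

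The 2 clusters annotated as δ-cells differed in most members. In the *Ppy*-led cluster 8 over cluster 6, *Nkx6-1* had ratios of 8.83 (5.55 to 14.8) and 15.5 (8.66 to 30.4), while *Pdx1* had 0.218 (0.162 to 0.290) and 0.156. *Isl1*, *Rfx6* and *Insm1* were lower too, with vehicle ratios of 0.320, 0.258 and 0.228. *Mafa* had only 31 against 5 and 19 against 13 UMIs and was not counted. Of the other 9 members 2 were past 1.5-fold higher and 6 lower in the vehicle library, against 2.11% and 53.1% of genes, and in the FAKi library 2 were higher and 7 lower, against 2.52% and 49% of genes. Without hormone genes in the totals, 7.44% of genes were higher and 15.7% lower in the vehicle library, and 8.80% and 16.2% in the FAKi library. With that scaling 2 of the 9 were higher and 4 lower with vehicle, where *Pax6* and *Foxa2* were no longer past it, and 2 were higher and 5 lower with FAKi, where *Neurod1* and *Foxa2* were no longer past it.

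Outside the endocrine types, the proportion of the members to insulin transcripts was close to that of β-cells in some types, and lower or higher in others. Per insulin UMI (*Ins1* and *Ins2*), the 10 members together stood at 1.08 and 1.02 times their level in β-cell cluster 0 in endothelial cells, and at 0.800 and 0.776 times in the annotated acinar class 1. *Mafa* alone stood at 0.951 and 0.847 times in endothelial cells. For the 10 together, fibroblasts stood at 1.14 and 1.02 times and macrophages at 1.02 and 1.37 times. Ductal cells stood at 2.83 (2.68 to 2.99) and 1.97 (1.82 to 2.13) times, acinar class 2 at 2.27 and 2.27 times and pericytes at 1.58 and 1.76 times. In vehicle B cells *Pax6* stood at 19.2 (11.8 to 29.3) times, from 21 UMIs. These cells held 4 α-cell markers at 10999 CPM beside 4 β-cell markers at 5021 CPM. Of them 5.31% were called doublets, and the part of α-cell RNA was not tested.

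The same measure was taken in the endocrine clusters. α-Cell cluster 5 had 106 and 94.6 times for the 10 together, and δ-cell cluster 6 146 and 104 times. The few *Mafa* UMIs of these 2 clusters were near the β-cell proportion too, at 0.785 and 1.54 times in α-cell cluster 5 and 0.561 and 1.08 times in δ-cell cluster 6. So were the few *Pdx1* UMIs of α-cell cluster 5, at 1.18 and 0.895 times. These values rest on few UMIs, and whether they are background or expression was not tested.

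In ductal cells the intervals lay above the β-cell proportion in both libraries for *Foxa2*, *Pdx1*, *Nkx6-1*, *Pax6* and *Insm1*. With vehicle they did so also for *Nkx2-2*, *Isl1* and *Rfx6*. These cells also held 4 α-cell markers at 4808 and 3670 CPM and 3 δ-cell markers at 1905 and 1087 CPM. *Ppy* stood at 1238 and 470 CPM there. The proportion to insulin does not cover RNA of those types, and its part was not tested. *Foxa2* stood at 61.6 and 102 CPM, which per insulin UMI was 32.1 (28.5 to 36.1) and 26.6 (22.9 to 30.7) times β-cell cluster 0. *Pdx1* stood at 37.9 and 49.3 CPM in ductal cells, or 6.53 and 4.09 times per insulin UMI. *Nkx6-1* stood at 2.18 and 1.59 times and *Mafa* at 1.10 and 0.625 times. *Foxa2* was also higher per insulin UMI in acinar class 2, at 21.0 and 16.9 times, from 15 and 17 UMIs. *Isl1* stood out in pericytes, at 36.5 and 44.3 CPM and 15.2 (10.1 to 22.1) and 9.87 (4.92 to 17.7) times β-cell cluster 0 per insulin UMI, from 28 and 11 UMIs. In endothelial cells it stood at 2.40 (1.81 to 3.13) and 2.25 (1.58 to 3.11) times.

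**Figure D2:**
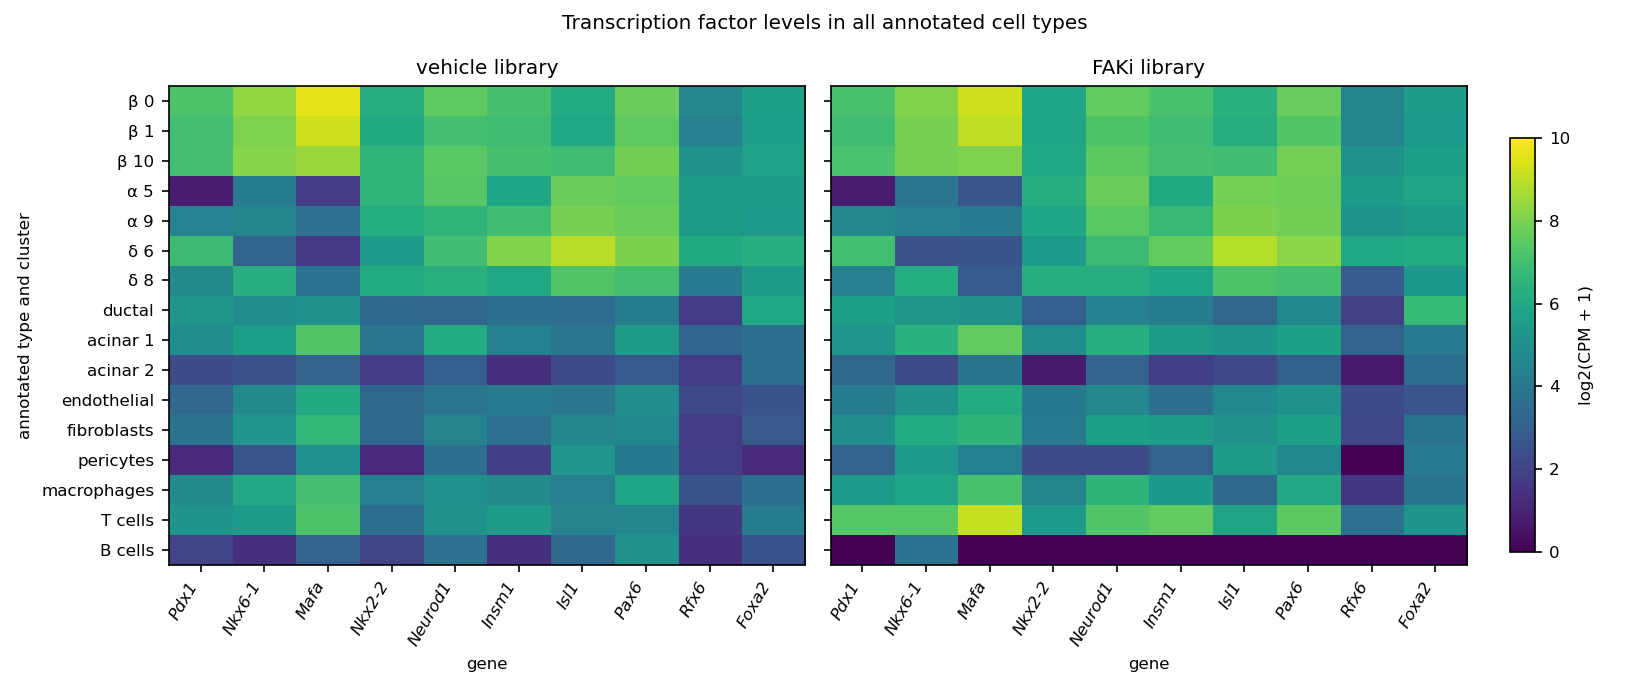
Heat map of log2(CPM + 1) of the 10 transcription factors in the 7 endocrine clusters and 9 other annotated types, vehicle on the left and FAKi on the right. The endocrine rows are bright for most genes, the ductal rows are bright for *Foxa2*, and the T-cell row is brighter in the FAKi library, where it is made up of 28 cells that together held much *Ins2*; the 9 FAKi B cells give mostly 0.

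Shares of cells with at least 1 UMI were compared after every cell was thinned to 5000 UMIs, which left out 57 vehicle and 110 FAKi β-cells that were shallower. At this depth *Mafa* was found in 90.0% of vehicle and 88.0% of FAKi β-cells. The share was 5.99% and 11.7% in endothelial cells, which should lack it. *Nkx6-1* was found in 75.8% and 72.2% of β-cells, *Pax6* in 62.7% and 61.3%, *Neurod1* in 52.8% and 54.9% and *Pdx1* in 51.9% and 50.4%.

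The remaining members were found in fewer β-cells. *Insm1* was in 48.9% and 45.8%, *Nkx2-2* in 32.5% and 25.9%, *Isl1* in 28.8% and 32.0%, *Foxa2* in 20.9% and 19.3% and *Rfx6* in 11.2% and 11.8%. In endothelial cells each of these 5 was in at most 5% of cells. The mean β-cell showed 4.75 and 4.62 of the 10 members, with an SD over cells of 1.52 and 1.47. δ-Cell cluster 6 showed 3.94 and 3.84, α-cell cluster 5 2.86 and 3.04, ductal cells 0.752 and 0.963 and endothelial cells 0.278 and 0.383.

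*Pdx1* and *Nkx6-1* were counted together in single cells. In β-cell cluster 0, 275 of 647 vehicle and 265 of 675 FAKi cells held both. In δ-cell cluster 6, 74 of 179 and 83 of 192 cells held *Pdx1* without *Nkx6-1*, against 3 and 2 cells with the reverse and 4 and 3 with both. In the *Ppy*-led cluster 8, 17 of 98 and 28 of 122 cells held *Nkx6-1* without *Pdx1*, 9 and 1 held *Pdx1* without *Nkx6-1*, and 5 and 6 held both. In α-cell cluster 5 none of 181 and 265 cells held both, and 16 and 19 held *Nkx6-1* alone. These counts follow the level of each gene, and no association between the 2 genes within a cluster was tested.

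The 3 β-cell clusters were then compared within each library. Cluster 0 held 650 vehicle and 675 FAKi cells, cluster 1 305 and 546, and cluster 10 121 and 115. The median depth per cell was 34677 and 34237 UMIs in cluster 0, 20070 and 16908 in cluster 1, and 24960 and 26713 in cluster 10. The acinar gene *Prss2* stood at 1265 and 1107 CPM in cluster 1, against 24.2 and 47.3 CPM in cluster 0. The red blood cell genes *Hba-a1* and *Hbb-bs* together stood at 5645 and 601 CPM in cluster 1, against 12.3 and 3.90 CPM in cluster 0.

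Cluster 1 held slightly less of nearly all members than cluster 0. In the vehicle library the ratios ran from 0.731 (0.681 to 0.785) for *Neurod1* to 0.966 (0.853 to 1.09) for *Foxa2*. In the FAKi library they ran from 0.782 (0.739 to 0.827) for *Neurod1* to 1.01 (0.864 to 1.18) for *Rfx6*. None of the 10 was past 1.5-fold in either library, where 2.6% and 1.81% of genes were. The members' median log2 ratio was -0.21 and -0.18, and that of all genes was -0.09 and -0.07. The part of depth, of red blood cell and of acinar transcripts in these ratios was not tested, and in cells with under 1% of UMIs on acinar markers, chosen after the data were seen, the medians were -0.23 and -0.18. In the FAKi library 28.0% of the genes past 1.5-fold were higher in cluster 1, and 52.7% as a mean over single cells, where still no member was past it.

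In cluster 10, *Mafa* was lower and *Isl1* and *Rfx6* were higher than in cluster 0. *Mafa* had ratios of 0.466 (0.439 to 0.493) and 0.427 (0.397 to 0.457). *Isl1* had ratios of 1.70 (1.52 to 1.90) and 1.45 (1.30 to 1.62), and *Rfx6* 1.46 (1.18 to 1.78) and 1.57 (1.26 to 1.94). *Pdx1* and *Nkx6-1* were close to cluster 0, with ratios of 0.881 and 1.02 for *Pdx1* and 0.899 and 0.895 for *Nkx6-1*.

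In each library 1 of 10 members was past 1.5-fold higher in cluster 10, *Isl1* with vehicle and *Rfx6* with FAKi, and 1 was past it lower, *Mafa* in both. Of all genes, 8.77% were higher and 2.2% lower in the vehicle library, and 10.8% and 2.13% in the FAKi library. The members' median log2 ratio was 0.05 and 0.06, below that of all genes, 0.18 in both libraries. Without hormone genes in the totals, 4.93% of genes were higher and 4.34% lower in the vehicle library, against 5.24% and 5.39% in the other, *Isl1* and *Rfx6* were no longer past 1.5-fold, and *Mafa* still was in both.

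**Figure D3:**
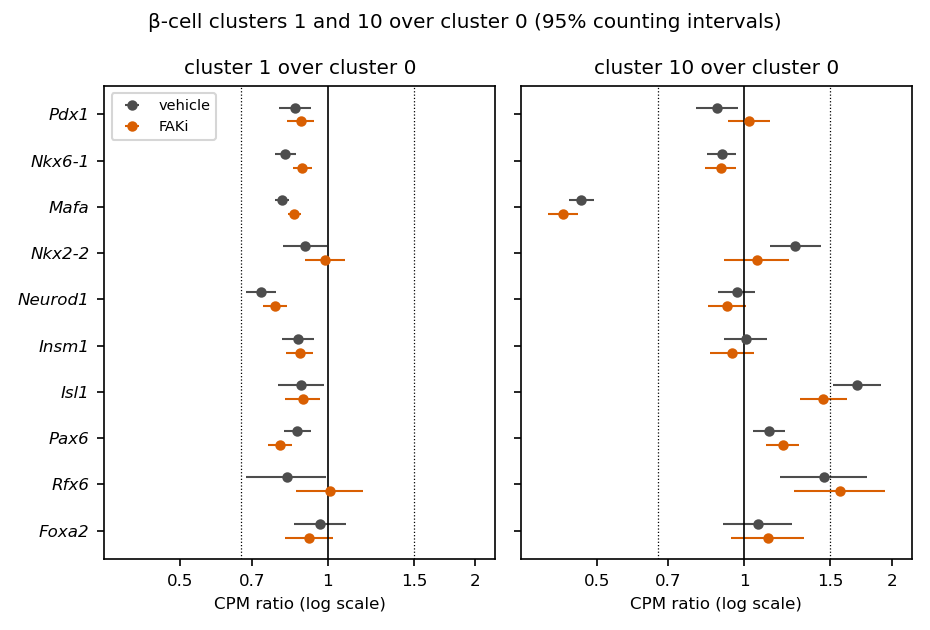
CPM ratios of β-cell clusters 1 and 10 over cluster 0 for the 10 transcription factors, on a log axis with 95% counting intervals, vehicle in grey and FAKi in orange, with dotted lines at 1.5-fold. *Mafa* lies far to the left in cluster 10 (0.466 and 0.427) and *Isl1* and *Rfx6* to the right, while all cluster 1 ratios lie between 0.731 and 1.01.

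The *Mafa* difference of cluster 10 was also seen cell by cell. In a separate draw of 5000 UMIs per cell the median cell held 4 and 3 *Mafa* UMIs in cluster 0, 3 and 3 in cluster 1, and 1 and 1 in cluster 10. No *Mafa* UMI was found in 4.02% (2.64 to 5.83) and 6.81% (5.03 to 8.99) of cells of cluster 0, against 35.8% and 38.7% of cells of cluster 10. The variance over the mean of *Mafa* UMIs was 2.01 and 2.43 in cluster 10 and 1.44 and 1.43 in cluster 0, so cells of cluster 10 differed more among themselves.

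Cluster 10 also held hormones of other islet types and more called doublets. *Gcg* stood at 10276 and 11956 CPM there, against 88.8 and 201 CPM in cluster 0, and 9.92% and 15.7% of its cells were called doublets, against none in cluster 0. Its cells were split, after the data were seen, by whether *Gcg*, *Sst*, *Ppy* and *Pyy* made up 1% of UMIs. *Mafa* was lower in the 73 and 73 cells under 1%, at 237 and 194 CPM, than in the 48 and 42 cells at or over it, at 486 and 377 CPM. Cells without a *Mafa* UMI were 49.2% of 63 and 44.3% of 70 cells of the first kind that reached 5000 UMIs, and 16.3% of 43 and 27.8% of 36 of the second. The *Mafa* level was thus at its lowest in the cells with little hormone of other types. *Isl1* stood at 106 and 92.0 CPM (78.9 to 106) in the cells under 1% and at 128 and 166 CPM in the others, and in the FAKi library the interval of the former overlapped that of cluster 0. *Rfx6* stood at 41.4 and 38.2 CPM in the cells under 1% and at 27.6 (20.3 to 36.7) and 27.1 (18.6 to 38.0) CPM in the others, whose intervals overlapped those of cluster 0. Under the alternatives run, which include leaving out called doublets, the log2 ratio of *Mafa* in cluster 10 over 0 lay between -1.71 and -1.08 in the vehicle library, and between -1.67 and -1.17 in the other.

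**Figure D4:**
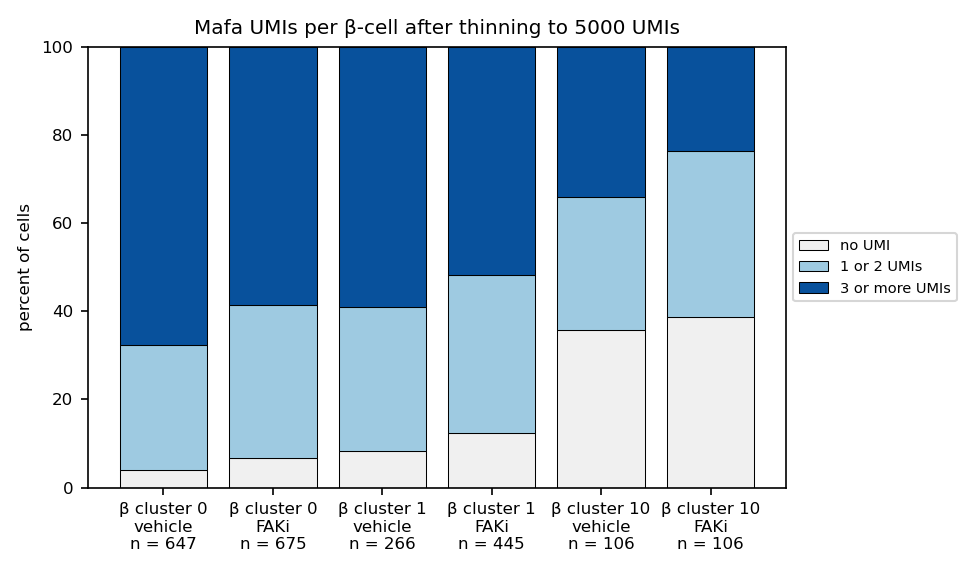
Share of β-cells with no, 1 or 2, or at least 3 *Mafa* UMIs after thinning each cell to 5000 UMIs, by cluster and library, with the number of cells under each bar. The pale part, cells without a *Mafa* UMI, grows from 4.02% and 6.81% in cluster 0 to 35.8% and 38.7% in cluster 10.

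FAKi and vehicle libraries were compared next, which addresses whether islet identity genes differed after FAKi treatment. Over all β-cells *Mafa* stood at 700 CPM with vehicle and 566 CPM with FAKi, a ratio of 0.808 (0.793 to 0.823). *Nkx2-2* had a ratio of 0.785 (0.741 to 0.831), from 75.0 to 58.9 CPM, and *Nkx6-1* 0.860 (0.837 to 0.884), from 309 to 266 CPM. *Foxa2* (0.896, 0.836 to 0.960), *Pax6* (0.945, 0.915 to 0.977) and *Pdx1* (0.954, 0.917 to 0.993) were nearer to 1. *Isl1* was higher in the FAKi library, with a ratio of 1.16 (1.10 to 1.22), and so was *Neurod1*, with 1.07 (1.03 to 1.11).

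*Insm1* (1.01, 0.973 to 1.06) and *Rfx6* (0.948, 0.860 to 1.04) had intervals that held 1. None of the 10 members was past 1.5-fold in β-cells, where 2.34% of 11059 genes were. The members' median log2 ratio was -0.08, and that of all genes was -0.04. With 1 library per treatment these ratios compare 2 libraries, and the treatment, the pool of mice and the library cannot be told apart.

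*Mafa*, *Nkx2-2* and *Nkx6-1* were also lower, and *Isl1* higher, within clusters 0 and 1. In cluster 0, *Nkx2-2* had a ratio of 0.789 (0.734 to 0.847), *Mafa* 0.800 (0.783 to 0.818) and *Nkx6-1* 0.852 (0.824 to 0.881), while *Isl1* had 1.21 (1.13 to 1.29). In cluster 1 these were 0.866 for *Nkx2-2*, 0.847 for *Mafa*, 0.923 for *Nkx6-1* and 1.22 for *Isl1*. None of the 10 was past 1.5-fold in either cluster, where 2.7% and 3.05% of genes were. In cluster 1, 34.3% of the genes past it were higher, and 54.6% without hormone genes in the totals, with no member past it in either case.

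In cluster 10, *Nkx2-2* was the 1 of 10 members past 1.5-fold lower, where 2.09% of genes were, with a ratio of 0.658 (0.549 to 0.788) from 324 and 197 UMIs. As a mean over single cells it was still the 1 member past it lower, and 6.70% of genes were. *Mafa* had 0.733 (0.671 to 0.801) there. *Isl1* had 1.03 and *Pdx1* 1.09, with intervals that held 1. *Mafa*, *Nkx2-2* and *Nkx6-1* thus lay below 1 in all 3 clusters, with no interval reaching 1.

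**Figure D5:**
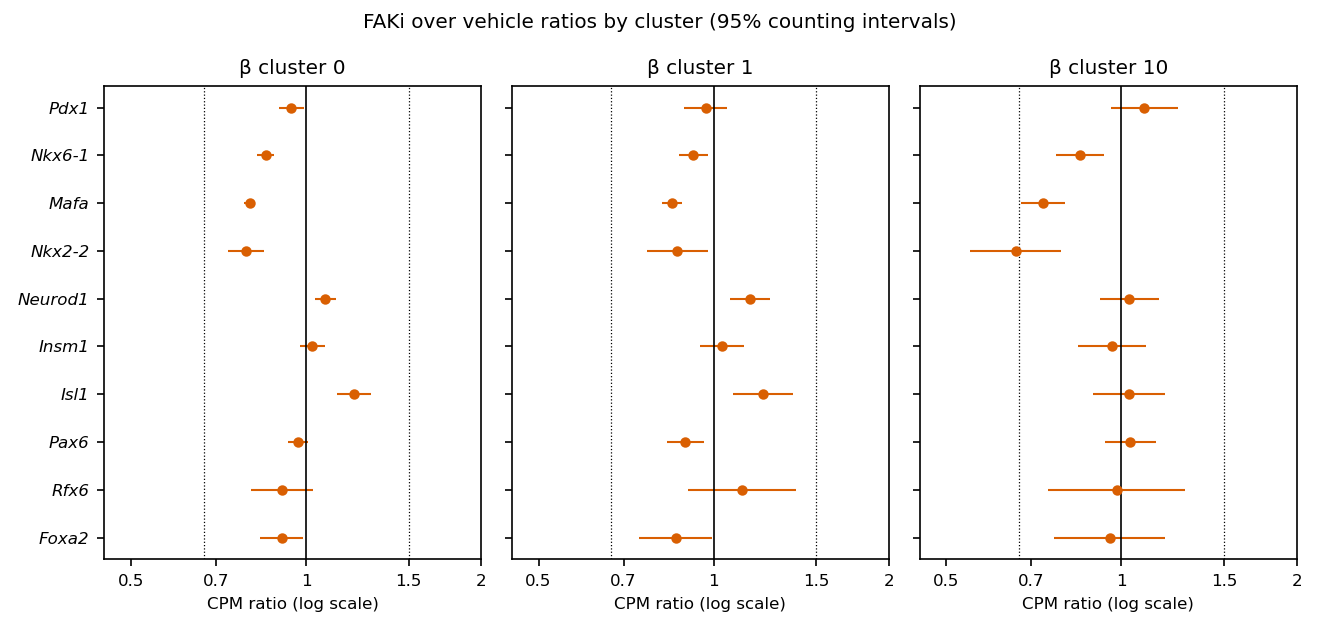
FAKi over vehicle CPM ratios of the 10 transcription factors in β-cell clusters 0, 1 and 10, on a log axis with 95% counting intervals and dotted lines at 1.5-fold. *Mafa*, *Nkx2-2* and *Nkx6-1* lie left of 1 in every panel, and *Nkx2-2* in cluster 10 is past the dotted line at 0.658.

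In the other endocrine clusters other members lay farthest from 1. In α-cell cluster 5, *Nkx2-2* again had a ratio below 1, 0.789 (0.669 to 0.930), while *Neurod1* (1.26, 1.13 to 1.41), *Foxa2* (1.27, 1.02 to 1.58), *Isl1* (1.13) and *Pax6* (1.13, 1.02 to 1.26) lay above it. None of the 8 members with at least 100 UMIs was past 1.5-fold, where 3.85% of genes were, and *Mafa* and *Pdx1* held fewer. *Ppy* stood at 40387 and 13262 CPM in the same cluster, and its part was not tested. Of the genes past it 68.7% were higher, and 57.6% with the 20 most abundant genes left out of the totals. In α-cell cluster 9, *Neurod1* had a ratio of 1.87 (1.45 to 2.42), from 92.9 to 173 CPM. Markers of other cells moved in the same cluster, with *Ppy* at 62348 and 24883 CPM, red blood cell genes (*Hba-a1* and *Hbb-bs*) at 3589 and 9.12 CPM and 4 endothelial markers at 2.26 and 54.1 CPM, beside 4 α-cell markers at 156871 and 202023 CPM, and their part was not tested. *Neurod1* was the 1 of 6 members with at least 100 UMIs past 1.5-fold higher there, against 3.73% of genes. Of the genes past it in either direction 58.2% were higher, and 46.3% without the 20 most abundant genes, where *Neurod1* was still past it.

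A list of 5 genes that respond to cell handling (*Fos*, *Jun*, *Hspa1a*, *Hspa1b* and *Atf3*, all 5 with UMIs) also differed between the libraries. Its summed level was 5520 and 8275 CPM in α-cell cluster 5, 4889 and 8108 CPM in α-cell cluster 9, 8660 and 12951 CPM in δ-cell cluster 6, and 4191 and 7145 CPM in the *Ppy*-led cluster 8. In β-cells it was lower with FAKi in clusters 0 (3477 and 2615 CPM) and 1 (2628 and 1956 CPM) and higher in cluster 10 (4085 and 4968 CPM). Its part in the members' ratios was not tested.

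In δ-cell cluster 6, *Insm1* had a ratio of 0.701 (0.622 to 0.790), from 273 to 191 CPM, and *Pax6* 1.18 (1.06 to 1.32). In the same cluster red blood cell genes stood at 35.6 and 2182 CPM, the 4 α-cell markers at 303 and 2105 CPM and *Ppy* at 8245 and 2143 CPM, and their part was not tested. None of the 8 members with at least 100 UMIs was past 1.5-fold, where 3.96% of genes were. In the *Ppy*-led cluster 8 none of 8 was, where 3.7% of genes were. Of those genes 42.2% were higher. As a mean over single cells, 5.55% of genes were past it higher and 20.6% lower, so 21.2% of those past it were higher. *Rfx6* and *Mafa* held fewer than 100 UMIs there, with ratios of 0.381 (0.209 to 0.674) from 40 and 19 UMIs and 0.492 (0.263 to 0.899) from 31 and 19 UMIs. The 4 β-cell markers stood at 21957 and 11896.5 CPM in that cluster, and *Ins2* had a ratio of 0.481.

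In ductal cells, 2 of 7 members with at least 100 UMIs were past 1.5-fold higher, where 2.86% of genes were. *Foxa2* had a ratio of 1.65 (1.39 to 1.95) and *Neurod1* 2.26 (1.49 to 3.41), the latter from 56 vehicle and 44 FAKi UMIs. *Pdx1* had 1.30 (1.02 to 1.64). These stood beside *Ins2* at 16469.5 and 36696.9 CPM and 5 acinar markers at 2608 and 5246 CPM in the same cells. The α-cell and δ-cell markers and *Ppy* were lower there with FAKi, and the part of all these was not tested. Per insulin UMI ductal *Neurod1* stood at 1.26 (0.9504 to 1.64) and 1.20 (0.872 to 1.62) times β-cell cluster 0. Both intervals held 1, and whether its UMIs were background was not tested.

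The members were set against 2 wider lists. The first held 51 other islet genes, most of them transcription factors, with some cofactors and the noncoding RNA *Meg3*. Of these 50 were in the table and 34 had at least 100 UMIs in β-cells. Between the libraries none of the 34 was past 1.5-fold higher in FAKi β-cells, where 0.633% of genes were, and 1 was lower, where 1.71% of genes were. This was the clock repressor *Nr1d1*, with a ratio of 0.489 (0.429 to 0.556). Their median log2 ratio was -0.11.

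Of 32 textbook targets of the members, 30 were in the table and all 30 had at least 100 UMIs in β-cells. *Nnat*, which aids insulin processing, was past 1.5-fold higher in the FAKi library, with a ratio of 2.75 (2.55 to 2.96). *G6pc2*, a glucose-6-phosphatase of β-cells, was lower at 0.664 (0.649 to 0.678), and so was *Rgs4*, a regulator of G protein signalling, at 0.570 (0.527 to 0.615). The prolactin receptor gene *Prlr* had 0.675 and the GLP-1 receptor gene *Glp1r* 0.738, short of 1.5-fold on this scale. By cluster, *Nnat* was past it in clusters 0, 1 and 10. *Gcg* was past it higher in clusters 0 and 1, with ratios of 2.27 and 6.35, and *Sst* in cluster 0, with 2.16, while *Glp1r* was past it lower in cluster 10, with 0.637. *Rgs4* was past it in clusters 0 and 1, with a ratio of 0.917 in cluster 10, and *G6pc2* in clusters 1 and 10, with 0.672 in cluster 0. Without hormone genes in the totals, *G6pc2* was no longer past it over all β-cells or in cluster 1, and still was in cluster 10. Cluster 1 made up 28.3% of vehicle and 40.9% of FAKi β-cells. The median log2 ratio of the 30 was -0.14.

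The same lists were read in β-cell cluster 10 over cluster 0. Of 32 genes of the first list with at least 100 UMIs, 9 were past 1.5-fold higher and 2 lower in the vehicle library, and 11 higher, *Meg3* among them, and 1 lower in the FAKi library, against the 8.77% and 2.2% of all genes with vehicle and 10.8% and 2.13% with FAKi. Without hormone genes in the totals these were 5 higher and 2 lower with vehicle and 6 higher and 1 lower with FAKi. *Gata6*, a zinc finger factor of early pancreas, had ratios of 8.33 and 7.33. Of the 30 targets, 7 were past it lower in both libraries, *Ero1lb*, *G6pc2*, *Glp1r*, *Prlr*, *Slc2a2*, *Trpm5* and *Ucn3*. *Ucn3*, a peptide of mature β-cells, had ratios of 0.601 (0.549 to 0.657) and 0.567 (0.509 to 0.629), *Slc2a2*, the glucose transporter of β-cells, 0.619 and 0.644, and *Trpm5*, a cation channel, 0.471 and 0.542. In the vehicle library 3 targets were past it higher, among them *Gcg* and *Sst*, and in the FAKi library 5. The same shares of all genes apply, and without hormone genes in the totals 8 targets were lower in each library, with *Pcsk1* added, and 2 and 3 were higher.

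Last, the genes most like each member were found by Pearson's r of log2(CPM + 1) over 28 points, 14 groups of cells in each of 2 libraries, among 14092 genes. The points share 2 libraries and differ in depth, and r is given as a description. *Mafa* was most like *Sytl4*, *Tmem215* and *G6pc2* (r of 0.978, 0.977 and 0.975). *Nkx6-1* was most like the amylin gene *Iapp* (0.957), *Pdx1* like *Gm27033* (0.947), and *Nkx2-2* like *Slc2a5* (0.978). *Pax6* was most like *Scg3* (0.974), *Rfx6* like *Abcc8* (0.970), *Insm1* like *Scg2* (0.975), *Isl1* like *Gnao1* (0.965), *Neurod1* like *Syt4* (0.955) and *Foxa2* like *Spint1* (0.947). With FAKi alone, *Iapp*, *Abcc8*, *Scg2*, *Gnao1*, *Syt4* and *Spint1* were not among the 3 genes most like their member. With vehicle alone, *Scg3*, *Tmem215* and *G6pc2* were not. Among the members, *Nkx2-2* and *Insm1* were closest (0.954) and *Mafa* and *Isl1* farthest (0.257).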

How the data were processed

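Islets of 5 vehicle- and 5 FAKi-treated mice were measured by droplet 3′ scRNA-seq, 1 library per treatment. The authors deposited UMI counts per gene and cell, made with Cell Ranger on mm10, and removed cells of high mitochondrial share or few genes with Seurat 3.1. The deposited mitochondrial percent per cell was at most 7.99853%. Per the labels and methods, cell types and clusters came from the authors' integrated, SCRAN-normalised data and were used as deposited. Levels were summed UMIs in CPM. Ratios past 1.5-fold were counted on log2(CPM + 1), with at least 100 UMIs over both groups for the background. No test was made, since each treatment had 1 library. For shares, cells were thinned to 5000 UMIs (seed 0). Doublets were called per library with Scrublet in scanpy 1.11.5 (1.80% and 1.79% of cells) and kept. Sums, intervals and plots were made with scipy 1.17.1, numpy 2.4.6, pandas 2.3.3 and matplotlib 3.10.9 in Python 3.11.15. Scripts were tested on simulated data. The named genes were the 10 members, list genes past 1.5-fold in a β-cell comparison, and the most similar genes of each member; cell type markers and overlapping genes are named as checks. A listed gene that the counts include is not reported here by name. In all, 11 alternatives were applied to the ratios, with 3 more added after the data were seen. The members and lists were chosen with earlier results of these data known.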

Additional observations from a re-analysis of the deposited data

Results flagged for a closer look

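The FAKi to vehicle ratio of *Pax6* lay on opposite sides of 1 in different cell types, each with its whole counting interval. It was 1.13 in α-cell cluster 5 and 1.18 in δ-cell cluster 6, and 0.894 in β-cell cluster 1. *Foxa2* did so too, with 1.27 in α-cell cluster 5 against 0.908 and 0.860 in β-cell clusters 0 and 1. These differences between cell types were not tested, because each treatment had 1 library.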

How the results depend on the processing

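No paired analysis was possible because each treatment had 1 library, and no replicate could be left out. Of the alternative values for the members' medians and counts and for the counts of genes, 145 stayed close to the first value and 20 moved; for single genes 630 stayed close and 220 moved. FAKi over vehicle in β-cells, *Mafa* (log2 -0.31 to -0.26), *Nkx2-2* (-0.40 to -0.30) and *Isl1* (0.19 to 0.32) kept their sign under all 11 alternatives, while *Pax6*, *Rfx6* and *Insm1* did not. For β-cell cluster 10 over 0 in the vehicle library the members' median (0.05) was 0.23 as a mean over cells and 0.25 in cells with under 1% of other hormones, and the 2 members past 1.5-fold were 4 as a mean over cells and 1 without the 20 most abundant genes or without hormone genes. Without either set the vehicle median turned below 0. In the FAKi library the median (0.06) turned to -0.17 without either set, and below 0 thinned to 5000 UMIs, and the 2 members past 1.5-fold were 1 without either set, thinned to 5000 UMIs or with a pseudocount of 10 CPM. For β-cells over α-cells the vehicle median (0.16) was 0.86 and 0.84 without the 20 most abundant and without hormone genes, and the FAKi median (-0.18) turned to 0.62 and 0.60, and -0.048 under 5% mitochondrial UMIs. For β-cell cluster 0 over δ-cell cluster 6, leaving out hormone genes turned *Foxa2* (-0.68 and -0.64) to 0.19 and 0.26 and *Pax6* with FAKi (-0.61) to 0.30. Leaving out hormone genes shifted the median of all genes by 0.64 and 0.72 for β-cells over α-cells, and by -0.17 and -0.22 for cluster 10 over 0. With a minimum of 20 UMIs, the genes past 1.5-fold were 542 (247 at 100) and 318 (175) for cluster 1 over 0, and 1838 (1022) and 2165 (1204) for cluster 10 over 0, vehicle first. As a mean over single cells, genes past it were 2.15% higher and 4.35% lower with vehicle and 2.33% and 2.10% with FAKi for cluster 1 over 0, 16.6% and 18.0% higher for cluster 10 over 0, and, FAKi over vehicle, 4.37% higher and 4.22% lower in β-cell cluster 1. The cause of these moves was not tested beyond the construction of each setting. *Rfx6*, *Foxa2* and *Nkx2-2* were limited by depth in single cells, and pericyte and acinar values rest on few UMIs.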
